A study of Mus musculus with 8 samples.

Results

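The proteasome is the cell's main protease for proteins tagged with ubiquitin, and 40 genes of it and of the ubiquitin system were followed through mouse muscle cells given 3 related cytokines. They were taken from a list of symbols, matched by Ensembl gene identifier to the 53647 gene rows of the count tables, and all 40 were found. The list holds the 7 alpha and 7 beta genes of the constitutive 20S core, 6 ATPase and 11 non-ATPase genes of the 19S regulator, 4 activator genes, and 5 genes of the ubiquitin system (Ubb, Rps27a, Uba1, Usp14 and Uchl1). Primary myoblasts from limb muscles of wild-type pups aged 2 to 3 days were differentiated into myotubes in 5% horse serum. They then received recombinant OSM (oncostatin M), LIF (leukemia inhibitory factor) or IL6 (interleukin 6), each at 250 ng/ml for 48 h, or no cytokine, and were harvested 72 h after differentiation. Poly(A) RNA was sequenced from 2 libraries in each of the 4 groups. The labels do not say whether the 2 libraries of a group came from separate animals or cultures, so the tests measure the spread between these libraries, which may be technical.

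In the barrel-shaped 20S core, rings of beta subunits that cut proteins lie between rings of alpha subunits that gate the entrance. The 19S regulator binds tagged proteins, removes their ubiquitin, unfolds them with its ATPase ring and threads them into the core. In skeletal muscle this route removes much of the contractile protein lost in wasting, and OSM, LIF and IL6 all signal through receptors that contain gp130.

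Libraries held 29482077 to 30025471 reads assigned to genes, and the 40 genes together took 0.609% to 0.649% of them. Of all genes, 15603 passed the filter on low counts, and the 40 members were all among them, with no member passing only through 1 group. The myotube label was checked against 12 defining markers, none at 0. In counts per 1000000 reads (CPM, ± SD, n = 2) they summed to 26840 ± 845 in control, 24440 ± 1430 with IL6, 24530 ± 863 with LIF and 23710 ± 113 with OSM. With OSM, sums of other markers differed more from control. The 5 proliferation markers summed to 762 ± 91.9 CPM in control, 680.6 ± 34.2 with IL6, 528.8 ± 30.3 with LIF and 215.7 ± 30.6 with OSM. The 7 fibroblast markers summed to 1684 ± 45.7 CPM in control, 1603 ± 141 with IL6, 2015 ± 44.4 with LIF and 2112 ± 76.4 with OSM, with Lum and Tcf21 at 0 in all 8 libraries. The 4 myoblast markers summed to 274.9 ± 30.1 CPM in control, 270.8 ± 20.9 with IL6, 290.9 ± 7.36 with LIF and 311.4 ± 16.8 with OSM. The 6 macrophage markers summed to 2.799 ± 0.173 CPM in control, 3.885 ± 0.915 with IL6, 3.675 ± 0.156 with LIF and 5.287 ± 0.216 with OSM, 189% of control. The 5 endothelial markers, Emcn at 0 throughout, had sums from 0.9264 to 1.745 CPM per library. By group these sums were 1 ± 0.105 CPM in control, 1.052 ± 0.038 with IL6, 1.209 ± 0.241 with LIF and 1.403 ± 0.484 with OSM. The part of these shifts in the results below was not tested, and in bulk samples fewer cells of a type and less RNA per cell cannot be told apart.

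Per kilobase of exon, members spanned a wide range of levels in control myotubes. The ubiquitin precursors stood highest, with Rps27a, which encodes ubiquitin fused to a ribosomal protein, at 397.1 CPM per kb and the polyubiquitin gene Ubb at 279.7 CPM per kb. In the core, Psma6 (103.7 CPM per kb) and Psma5 (98.89 CPM per kb) were highest and Psma3 (30.96 CPM per kb) lowest. In the regulator, levels ran from 93.06 CPM per kb for Psmc3 and 84.48 CPM per kb for Psmd8 down to 19.59 CPM per kb for Psmc2 and 17.85 CPM per kb for Psmd11. The lowest member was Psme1, which encodes the alpha chain of the 11S activator, at 6.919 CPM per kb. Subunits of 1 complex thus differed several-fold in read density, and part of each level depends on which exons the annotation counts and on sequence shared with pseudogenes. Of the 40 members, 13 shared over 10% of the 50-base words of their longest transcript with another annotated transcript, among them Ubb (61%), Psme2 (59.3%), Psmb5 (57.1%), Psma5 (55.4%), Usp14 (45.3%) and Rps27a (40.6%), and reads from such stretches may have been dropped or split.

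**Figure D1:**
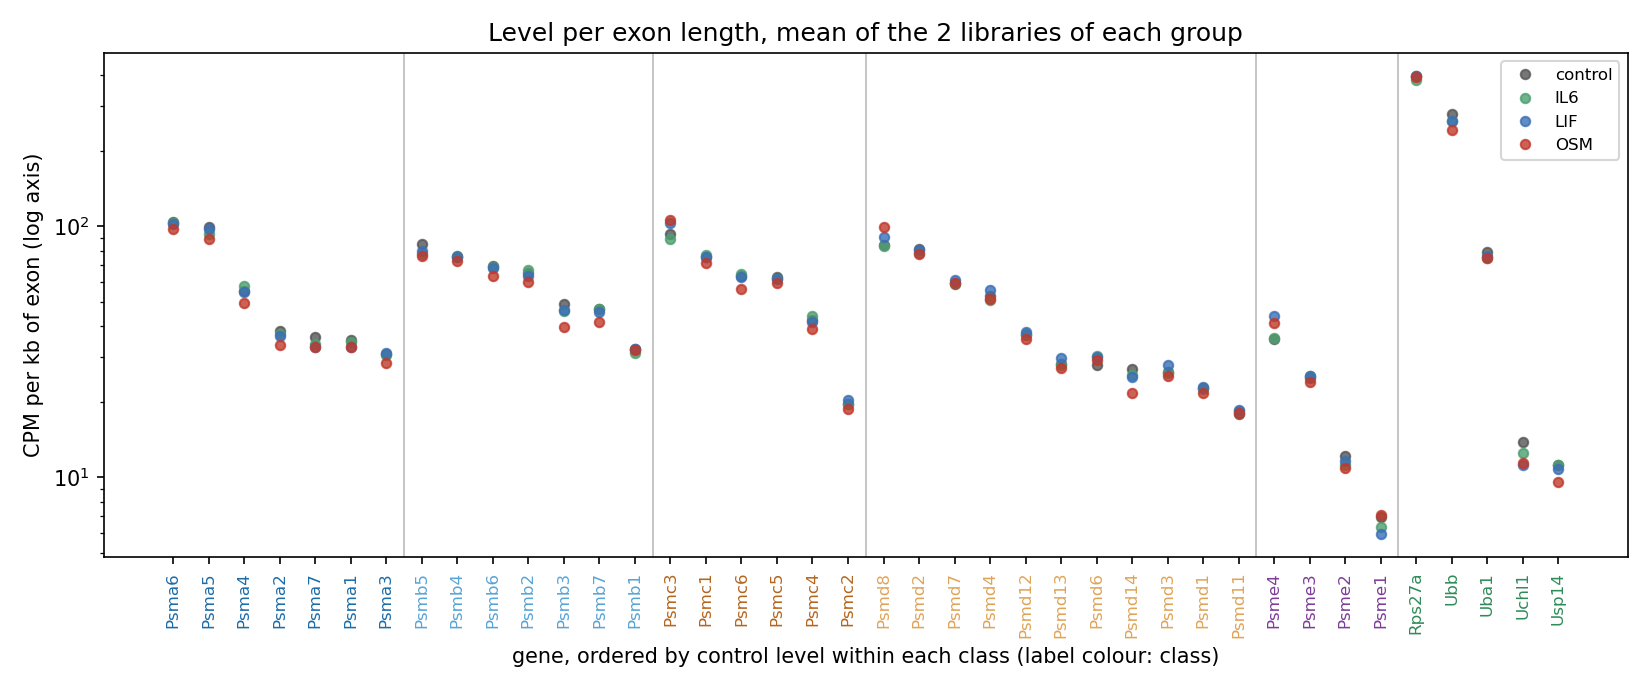
Mean level of each gene in each group (points, coloured by group) in CPM per kb of exon on a log axis, with genes ordered by control level within the 6 classes and label colours marking the class. Rps27a (397.1 in control) and Ubb (279.7) lie highest and Psme1 (6.919) lowest, and the 4 groups nearly coincide for each gene.

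OSM against control asked how the myotubes' RNA changed with this cytokine. It changed 8 of the 40 genes, 3 upward and 5 downward. Psmc3, Psmd8 and Psme4 rose, and Psma2, Psmb3, Psmd14, Ubb and Usp14 fell, by edgeR's quasi-likelihood test at a Benjamini-Hochberg adjusted p under 0.05 over all 15603 genes. That is 20% of the members, where 21.4% of all tested genes were called (10.8% higher and 10.6% lower), so the count is near the background. The count depended on single libraries. It fell without control 1 or any 1 OSM or LIF library, and there the members' share lay below that of all tested genes. It rose without either IL6 library, and with the replicate number as a block it was 10 (25%, background 25.4%). The size of the changes was small: the fold changes of the 40 genes ran from 0.802 for Psmd14 to 1.18 for Psmd8. Their median absolute log2 change was 0.11, against 0.19 for all tested genes. Their median SE was also smaller, 0.063 against 0.11, and a like gap appeared with IL6 (0.037 against 0.087), where no gene was called. The gap therefore does not show that the members moved less than other genes. For 39 of the 40 the 95% interval of the log2 change lay within ±0.5.

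The direction leaned downward. The fitted change was below 0 for 33 of 40 members, against 50.8% of all tested genes, and the median log2 change of the 40 was -0.081, against -0.0029. When single libraries were left out, the number below 0 ran from 28 (without OSM 2) to 35 (without OSM 1). Both OSM libraries lay below both control libraries for 23 members (57.5%, background 31%) and above them for 3 (7.5%, background 29.9%). These members were chosen with earlier results of the same data known, so the counts are a description. The summed level of the 40 genes was 6385 ± 79.9 CPM in control and 6155 ± 113 CPM with OSM, 96.4% of control.

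**Figure D2:**
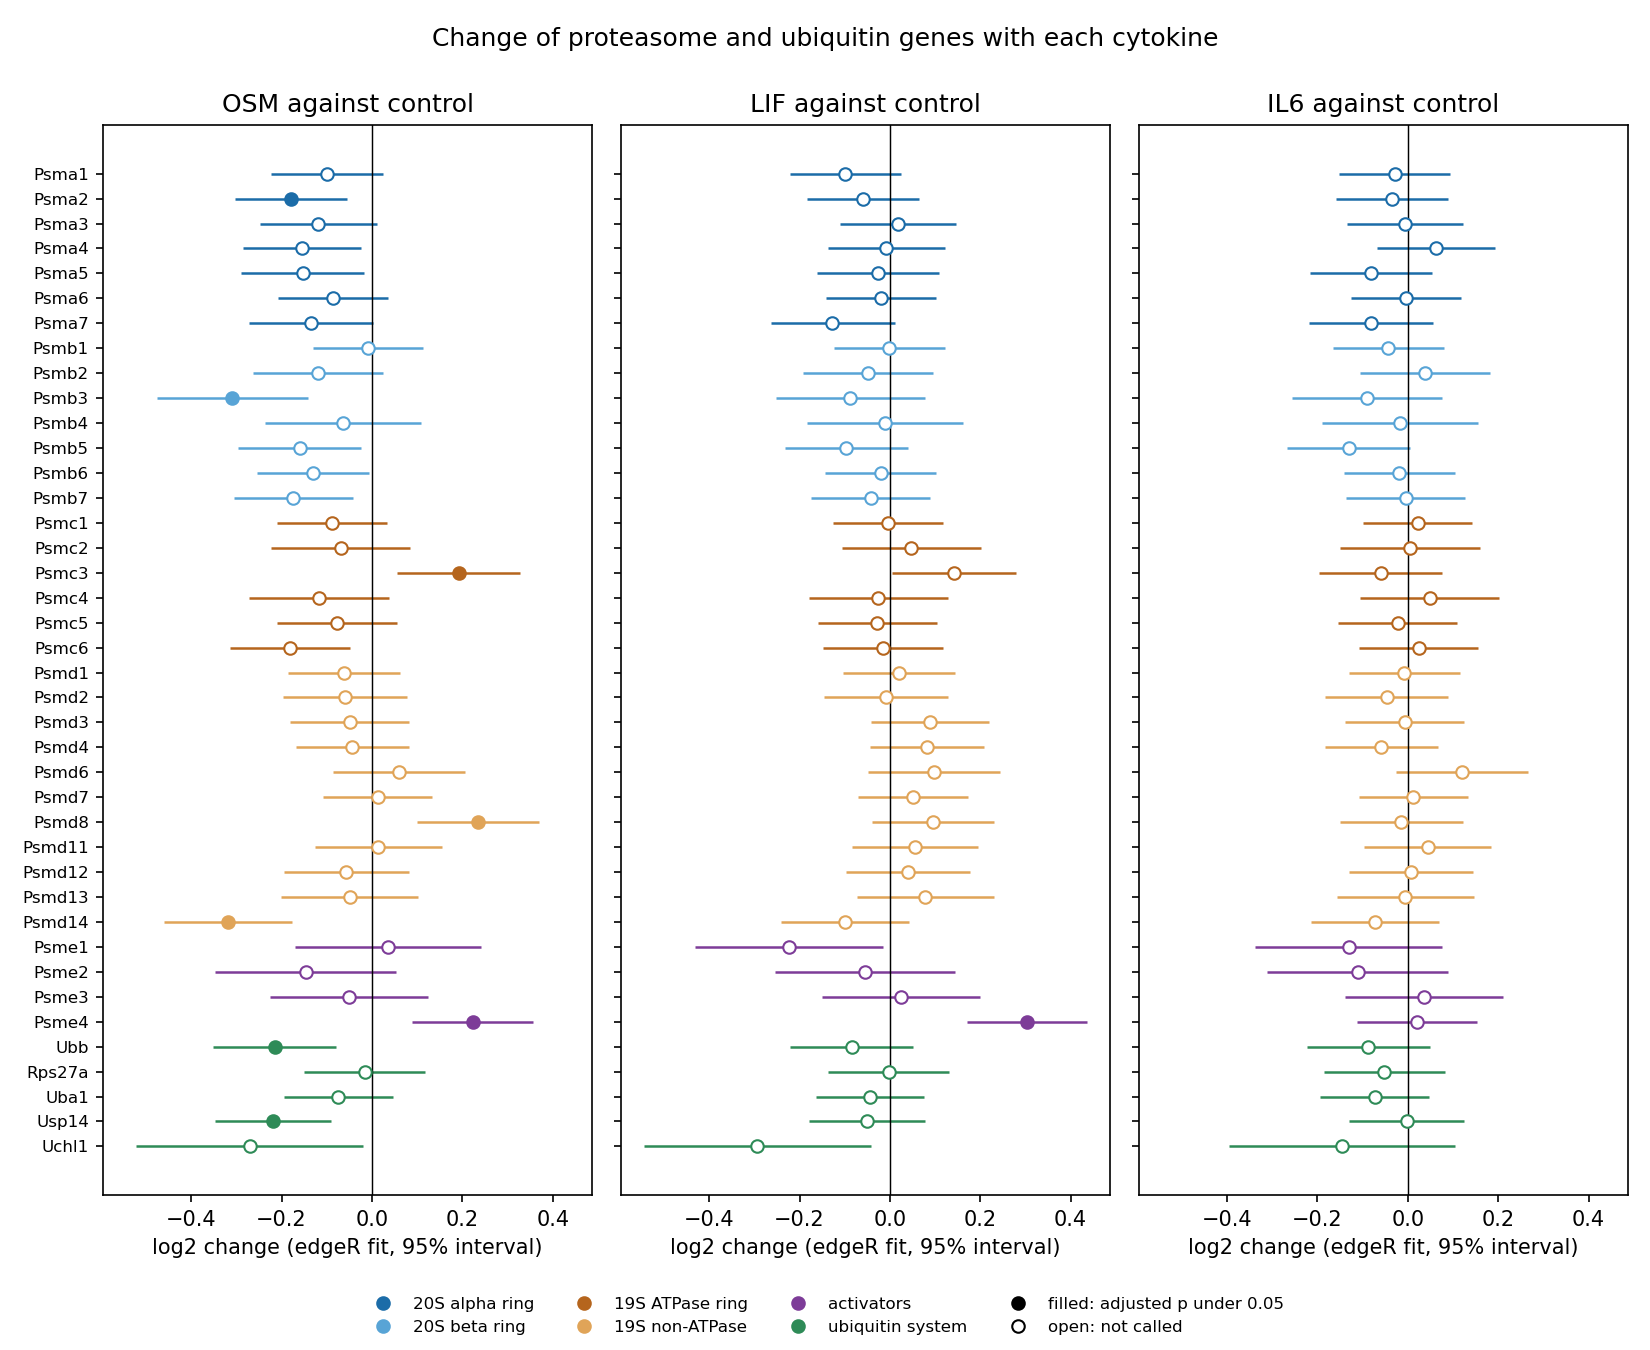
Fitted log2 change (points) with 95% interval (bars) of the 40 genes, coloured by class, for OSM, LIF and IL6 against control; filled points passed an adjusted p of 0.05. With OSM 8 points are filled, with LIF only Psme4 and with IL6 none, and all 14 points of the 20S core lie below 0 with OSM.

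The promoters of members that OSM changed are shown because these genes moved in both directions, and the letters allow the start regions of falling and rising genes to be set side by side. RefSeq windows (assembly GRCm38.p6) were matched by symbol for 32 of the 40 members; Psmb1, Psmb2, Psmb7, Psmc3, Psmd3, Psmd7, Rps27a and Usp14 had no entry. Each window is the 150 bases before a RefSeq start, read 5′ to 3′ on the gene's strand, and only its longest stretch outside any exon of the GENCODE M21 annotation is printed. Capitals mark matches on either strand to 4 motifs: TGANNNNGC, the core of the antioxidant response element that NRF-family factors bind, CCAAT, TTCNNNGAA, the spaced palindrome that STAT factors bind, and the GC box GGGCGG. Psma2, Psmb3 and the first of the Ubb starts, all genes that fell, had a CCAAT in the printed stretch, and Psmb3 also matched TGANNNNGC in the part of its window left out.
Psma2: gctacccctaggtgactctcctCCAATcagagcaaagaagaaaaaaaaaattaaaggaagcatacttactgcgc
Psmb3: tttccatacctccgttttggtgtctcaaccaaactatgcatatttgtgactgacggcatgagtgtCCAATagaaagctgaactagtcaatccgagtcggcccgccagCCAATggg
Ubb: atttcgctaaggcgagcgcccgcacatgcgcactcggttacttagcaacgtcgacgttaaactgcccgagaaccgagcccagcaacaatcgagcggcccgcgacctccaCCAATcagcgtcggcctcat
Psmd14: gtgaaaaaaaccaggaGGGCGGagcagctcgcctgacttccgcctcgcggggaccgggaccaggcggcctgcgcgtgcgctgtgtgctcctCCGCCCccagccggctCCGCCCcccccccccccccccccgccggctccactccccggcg
Psmd8: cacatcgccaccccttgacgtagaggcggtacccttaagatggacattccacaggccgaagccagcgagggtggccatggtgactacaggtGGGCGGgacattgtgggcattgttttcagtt
Psme4: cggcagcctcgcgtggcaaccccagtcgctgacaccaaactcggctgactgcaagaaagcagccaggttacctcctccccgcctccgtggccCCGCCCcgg

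On GRCm38.p6 these stretches lie at chr13:14613166-14613239 (plus strand, Psma2), chr11:97703284-97703398 (plus, Psmb3), chr11:62551042-62551170 (plus, Ubb), chr2:61711544-61711693 (plus, Psmd14), chr7:29180702-29180823 (minus, Psmd8) and chr11:30771625-30771725 (plus, Psme4). Psmd14, which fell, and Psmd8 and Psme4, which rose, all had a GC box and no CCAAT in these stretches, so the motifs did not sort these 6 genes by direction. Over whole windows, CCAAT was present for 10 of 32 members and in 24.5% of all 32851 RefSeq windows, the GC box for 14 members and in 28.6%, and TGANNNNGC for 11 members and in 23% of windows. TTCNNNGAA was present for 2 members, Ubb at its other start and Uba1, and in 4.09% of all windows. A member was counted if any of its windows matched, and the 32 members had 38 windows. The background is a share of single windows, so the 2 are not like for like. By class, TGANNNNGC and CCAAT were each present for 5 of 11 core genes with a window and 2 of 14 regulator genes, and the GC box for 3 of 11 and 8 of 14. Matches did not overlap one another in the stretches printed. A match describes the letters of a window and is not a mapped binding site.

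Within the 20S core, all 14 genes had a fitted change below 0 with OSM (50.8% of all tested genes), between -0.31 and -0.0086, with a median of -0.13. The number below 0 was 13 without control 2, 12 without OSM 2 and 14 without any other single library. For 12 of the 14 both OSM libraries lay below both controls (31% of all tested genes); Psmb1 and Psmb4 were the exceptions. The alpha genes summed to 880 and 850.6 CPM in the control libraries and 791.1 and 786.3 CPM with OSM, 91.1% of control, and the beta genes to 856.9 and 854.7 CPM and to 804.4 and 761.5 CPM, 91.5%. The OSM sums lay below the control sums in both rings. Of the 14, 2 passed the test, where 21.4% of all tested genes did.

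Psma2 encodes an alpha-ring subunit. Its level was 143.1 and 137.8 CPM in control, 136.2 and 137.8 with IL6, 137.3 and 132.2 with LIF, and 125.9 and 122.2 with OSM. The OSM libraries were the lowest, and OSM lowered the gene by a log2 change of -0.18 (SE 0.058, edgeR adjusted p = 0.0412). The call was lost without any 1 of the control, LIF or OSM libraries, with DESeq2, with no filter on low counts and in a fit of the 2 groups alone (adjusted p 0.0235 to 0.253 over 13 alternatives). The other 6 alpha genes had changes between -0.16 and -0.086 with adjusted p from 0.0876 to 0.322. Among them, Psma4 stood at 131.2 and 130.2 CPM in control, 139.7 and 133.2 with IL6, 134.2 and 125.8 with LIF, and 115.3 and 119.4 with OSM. It missed the threshold against control (log2 change -0.16, adjusted p = 0.0876) and was lower with OSM than with IL6 (log2 change -0.22, SE 0.060, adjusted p = 0.0256), a call lost without IL6 1 or any 1 LIF or OSM library and with 2 groups alone (up to 0.226).

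Psmb3, a beta-ring subunit without catalytic activity, had the largest change in the core. Its level was 114.7 and 111.2 CPM in control, 98.14 and 114 with IL6, 111.7 and 100.9 with LIF, and 92.74 and 89.59 with OSM. The OSM libraries lay below all others, while the IL6 and LIF libraries overlapped the controls. OSM lowered it by a log2 change of -0.31 (SE 0.077, adjusted p = 0.0117), a call lost without control 1, OSM 1 or OSM 2 (adjusted p up to 0.116). Its longest transcript shared 10.1% of its 50-base words with other annotated transcripts.

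The beta subunits that carry the cutting sites are encoded by Psmb5 (chymotrypsin-like), Psmb6 (caspase-like) and Psmb7 (trypsin-like). Psmb5 had 77.31 and 75.18 CPM in control, 68.3 and 70.96 with IL6, 72.07 and 70.58 with LIF, and 70.4 and 66.14 with OSM. Psmb6 had 130.6 and 129.3 CPM in control, 125 and 131.5 with IL6, 129 and 127.3 with LIF, and 118.5 and 118.9 with OSM. Psmb7 had 162.5 and 158.9 CPM in control, 155.4 and 164.9 with IL6, 161.3 and 150.8 with LIF, and 144.9 and 139.9 with OSM. In each of the 3 genes both OSM libraries lay below both controls, and none passed the test: the log2 changes were -0.16 (adjusted p = 0.0939), -0.13 (adjusted p = 0.129) and -0.17 (adjusted p = 0.0599). Psmb5, which shares most of its transcript sequence with a pseudogene, was below control in all 6 cytokine libraries.

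**Figure D3:**
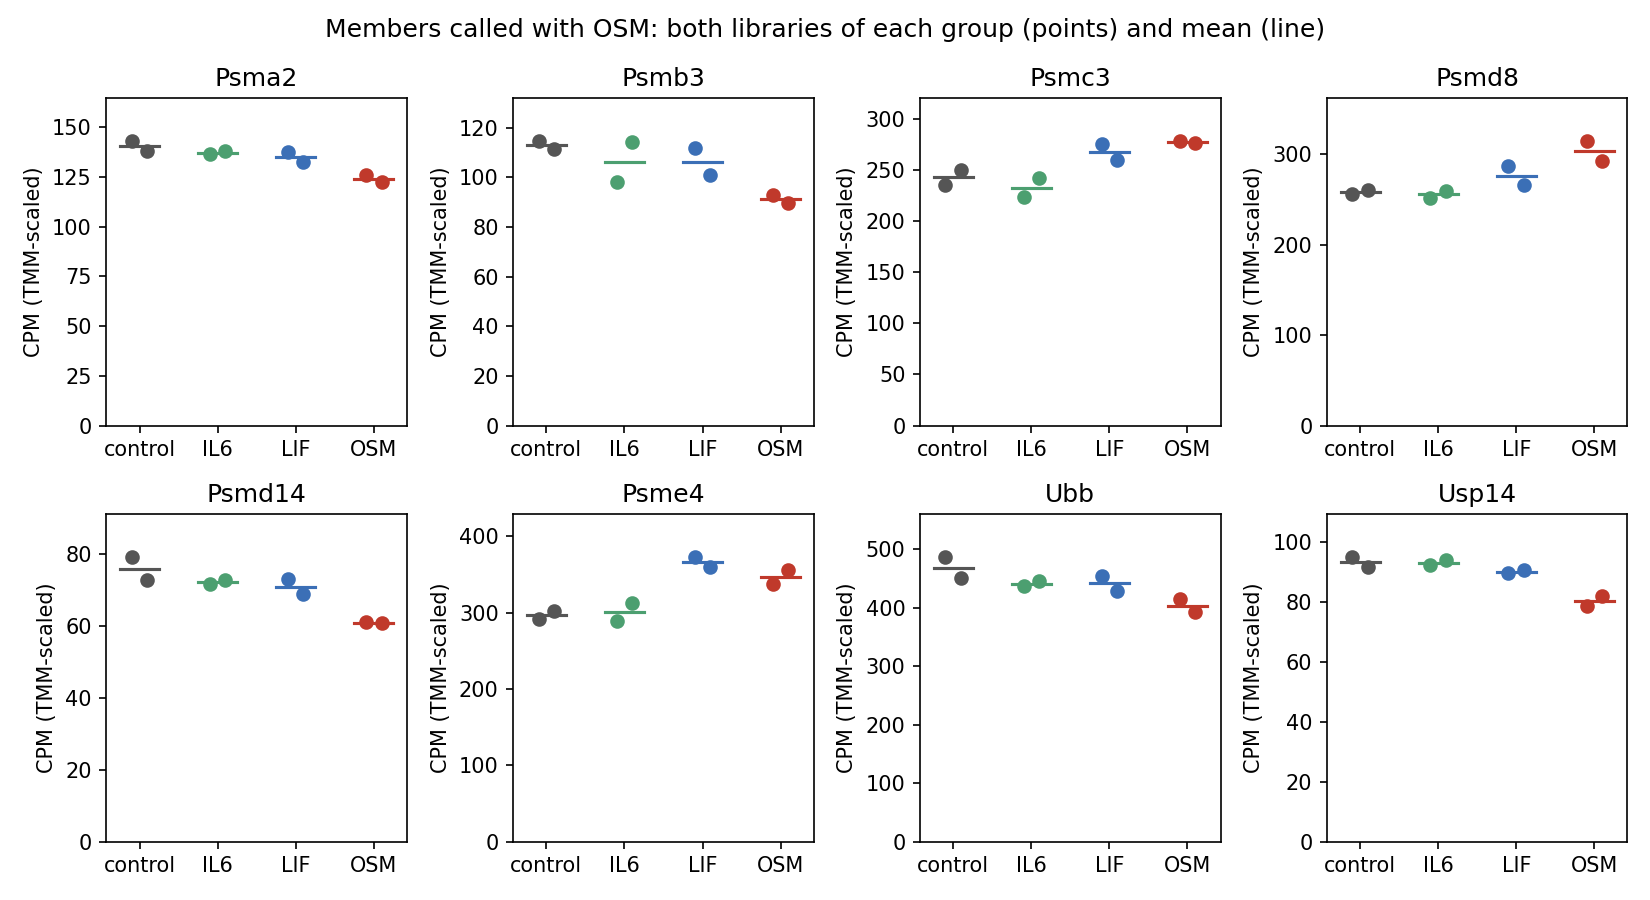
TMM-scaled CPM of the 8 genes that OSM changed, with the 2 libraries of each group as points and their mean as a line; axes start at 0. Psma2, Psmb3, Psmd14, Ubb and Usp14 are lowest with OSM, Psmc3 and Psmd8 highest with OSM, and Psme4 is high with both LIF (372.8 and 359.9) and OSM (337.3 and 355.3).

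The 19S regulator did not move as a block with OSM. Of its 17 genes, 12 had a fitted change below 0, 2 rose and 1 fell, and the median log2 change was -0.056. Over all tested genes 50.8% were below 0 and 21.4% were called, so 3 calls among 17 are near the background. The ATPase genes summed to 98.1% of control and the non-ATPase genes to 100%.

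Among the ATPases, which unfold the substrate, Psmc3 rose and the other 5 had changes below 0. Psmc3 stood at 235.3 and 249.9 CPM in control, 223.6 and 241.8 with IL6, 275.7 and 259.6 with LIF, and 278.4 and 276.1 with OSM. Both LIF and both OSM libraries lay above the controls. The log2 change was 0.19 with OSM (SE 0.063, adjusted p = 0.0445), 0.25 for OSM against IL6 (adjusted p = 0.0149), and 0.14 with LIF, which did not pass (adjusted p = 0.223). Exons of Psmc3 overlap those of Slc39a13, a zinc transporter gene, over 8.25% of their length, and Slc39a13 rose with OSM from 54.89 ± 0.406 to 87.92 ± 5.41 CPM (log2 change 0.68, adjusted p = 9.46e-06). The part of the shared stretch in the change of Psmc3 was not tested. The call of Psmc3 against control was lost without control 1 or any 1 LIF or OSM library (adjusted p up to 0.205), and that against IL6 without IL6 1 or any 1 OSM library (up to 0.115).

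Psmc6, another ATPase gene, had 230.5 and 213.9 CPM in control, 223.8 and 228 with IL6, 224.2 and 215.6 with LIF, and 190.4 and 201.8 with OSM. The OSM libraries were the lowest. The change of -0.18 against control missed the threshold (adjusted p = 0.0529), and the gene was lower with OSM than with IL6 (log2 change -0.20, SE 0.062, adjusted p = 0.0384), a call lost without any 1 IL6, LIF or OSM library and with 2 groups alone (up to 0.324). Psmc1, Psmc2, Psmc4 and Psmc5 had changes between -0.12 and -0.070 with OSM.

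The 11 non-ATPase genes held both extremes of the whole list. Psmd14 encodes the deubiquitinase of the regulator, which removes the ubiquitin chain as the substrate enters. It had 79.19 and 72.77 CPM in control, 71.64 and 72.74 with IL6, 72.98 and 68.84 with LIF, and 61.1 and 60.77 with OSM. Both OSM libraries lay clearly below the other 6. OSM lowered Psmd14 by a log2 change of -0.32 against control (SE 0.066, adjusted p = 0.00377) and -0.25 against IL6 (adjusted p = 0.0228), while against LIF the change of -0.22 did not pass (adjusted p = 0.0633), though it did under 6 of 13 alternatives, among them those without any 1 control or IL6 library. It was the only member called against control under all 13 alternative settings (adjusted p 0.000549 to 0.0454). The call against IL6 was lost without IL6 2, OSM 1 or OSM 2 (up to 0.148).

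Psmd8 encodes a lid subunit of the regulator. It had 255.8 and 260.7 CPM in control, 252 and 259.5 with IL6, 286.5 and 265.5 with LIF, and 314.9 and 292.4 with OSM. OSM was highest, LIF next, and the IL6 and control libraries overlapped. The rise with OSM was 0.23 on the log2 scale against control (SE 0.062, adjusted p = 0.0171) and 0.25 against IL6 (adjusted p = 0.0158). Against LIF the difference was 0.14 (adjusted p = 0.23). The call against control was lost without control 1 or OSM 1 (adjusted p up to 0.185), and that against IL6 without OSM 1 (up to 0.184).

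Psmd6, another lid subunit, had the highest change of any member with IL6. It had 80.7 and 76.66 CPM in control, 86.43 and 84.58 with IL6, 87.58 and 80.73 with LIF, and 85.21 and 78.92 with OSM. The IL6 libraries lay above the controls, with a log2 change of 0.12 that did not pass (adjusted p = 0.943). The remaining 8 non-ATPase genes (Psmd1, Psmd2, Psmd3, Psmd4, Psmd7, Psmd11, Psmd12 and Psmd13) had changes with OSM between -0.061 and 0.014, and none was called in any of the 6 comparisons.

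The activators replace or join the 19S regulator at the ends of the core. Psme4, which encodes PA200, a large activator that opens the core without ATP, was called in 4 of the 6 comparisons, more than any other member. It had 291.7 and 301.9 CPM in control, 289.2 and 312.7 with IL6, 372.8 and 359.9 with LIF, and 337.3 and 355.3 with OSM. Both LIF and both OSM libraries lay above all control and IL6 libraries. It rose with LIF by 0.30 (SE 0.062, adjusted p = 0.00846) and with OSM by 0.22 (SE 0.062, adjusted p = 0.0206) on the log2 scale against control. It also stood 0.28 higher with LIF than with IL6 (adjusted p = 0.0294) and 0.20 higher with OSM than with IL6 (adjusted p = 0.0407). OSM and LIF did not differ by the test (log2 change -0.081, 95% interval -0.21 to 0.052, adjusted p = 0.529). The call with LIF was lost without LIF 1 or LIF 2 (adjusted p up to 0.122) and that with OSM without control 1, OSM 1 or OSM 2 (up to 0.166). Both calls against IL6 were lost without IL6 1 or any 1 LIF or OSM library and with 2 groups alone (up to 0.309 for LIF and 0.255 for OSM).

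Psme1 and Psme2 encode the chains of the 11S activator that interferon induces in many cells, and Psme3 its nuclear relative. Psme1 had 14.72 and 15.85 CPM in control, 13.79 and 14.13 with IL6, 13.05 and 13.13 with LIF, and 15.56 and 15.77 with OSM, and Psme2 had 20.79 and 21.89, 18.89 and 20.64, 21.12 and 19.96, and 18.37 and 20.2 CPM in the same order. Psme3 had 76.96 and 69.24 CPM in control, 79.09 and 70.72 with IL6, 79.04 and 69.64 with LIF, and 70.85 and 70.33 with OSM. None of the 3 was called in any comparison. Their lowest log2 change was that of Psme1 for LIF against control, -0.22 (edgeR adjusted p = 0.207). Their highest was that of Psme1 for OSM against LIF, 0.26 (edgeR adjusted p = 0.133). The 8 interferon-response genes followed as a marker list summed to 67.81 ± 8.24 CPM in control, 66.8 ± 3.11 with IL6, 198.1 ± 11.7 with LIF and 158.6 ± 22.4 with OSM.

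In the ubiquitin system all 5 genes had changes below 0 with OSM (50.8% of all tested genes), and 2 passed as lower (10.6% of all tested genes), a count too small to read against that share. Ubb supplies free ubiquitin as a polyubiquitin chain. It had 486.7 and 450.3 CPM in control, 436.8 and 445.1 with IL6, 454.6 and 429.2 with LIF, and 414.4 and 392.8 with OSM. The OSM libraries were lowest, and the gene fell by 0.22 on the log2 scale (SE 0.063, adjusted p = 0.0267). The call was lost without control 1 or any 1 LIF or OSM library (adjusted p up to 0.234). Ubb shares 61% of its 50-base words with other transcripts, among them the pseudogene Gm1821, so its level is uncertain.

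Usp14 encodes a deubiquitinase that docks on the proteasome and trims chains before degradation. It had 94.91 and 91.5 CPM in control, 92.15 and 93.89 with IL6, 89.46 and 90.61 with LIF, and 78.44 and 81.77 with OSM. The OSM libraries were lowest, and the LIF libraries also lay below all control and IL6 libraries. Usp14 fell with OSM by 0.22 on the log2 scale (SE 0.060, adjusted p = 0.0189), and it was also lower than with IL6 (log2 change -0.22, adjusted p = 0.0254). The call against control was lost without control 1, OSM 1 or OSM 2 (adjusted p up to 0.182), and that against IL6 without IL6 2 or any 1 LIF or OSM library and with 2 groups alone (up to 0.231). Its exons overlap those of Thoc1 over 26% of their length; Thoc1 had a log2 change of 0.24 with OSM (adjusted p = 0.135), in the opposite direction.

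Rps27a, Uba1 and Uchl1 were not called in any comparison. Rps27a had 794.7 and 771.5 CPM in control, 722.4 and 788.1 with IL6, 791.2 and 772.2 with LIF, and 782.7 and 766 with OSM, so its libraries overlapped. Uba1, the E1 enzyme that activates ubiquitin, had 374.9 and 382.8 CPM in control, 355.7 and 364.3 with IL6, 368.7 and 366.5 with LIF, and 365.7 and 354 with OSM. Both of its libraries lay below control with every cytokine, and the log2 changes were -0.074 with OSM, -0.043 with LIF and -0.074 with IL6.

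Uchl1 encodes a ubiquitin hydrolase best known from neurons. It had 22.61 and 22.3 CPM in control, 19.98 and 20.64 with IL6, 18.63 and 18.02 with LIF, and 21.31 and 15.94 with OSM. Every cytokine library lay below both controls, but the OSM libraries differed more from each other than LIF did from control. Its changes of -0.29 with LIF (adjusted p = 0.168), -0.27 with OSM (adjusted p = 0.124) and -0.15 with IL6 (adjusted p = 0.95) did not pass. Without OSM 1 the OSM change was -0.49 and passed (adjusted p = 0.0182, against up to 0.752 under the other alternatives). In LIF and IL6 these were the lowest changes of any member.

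**Figure D4:**
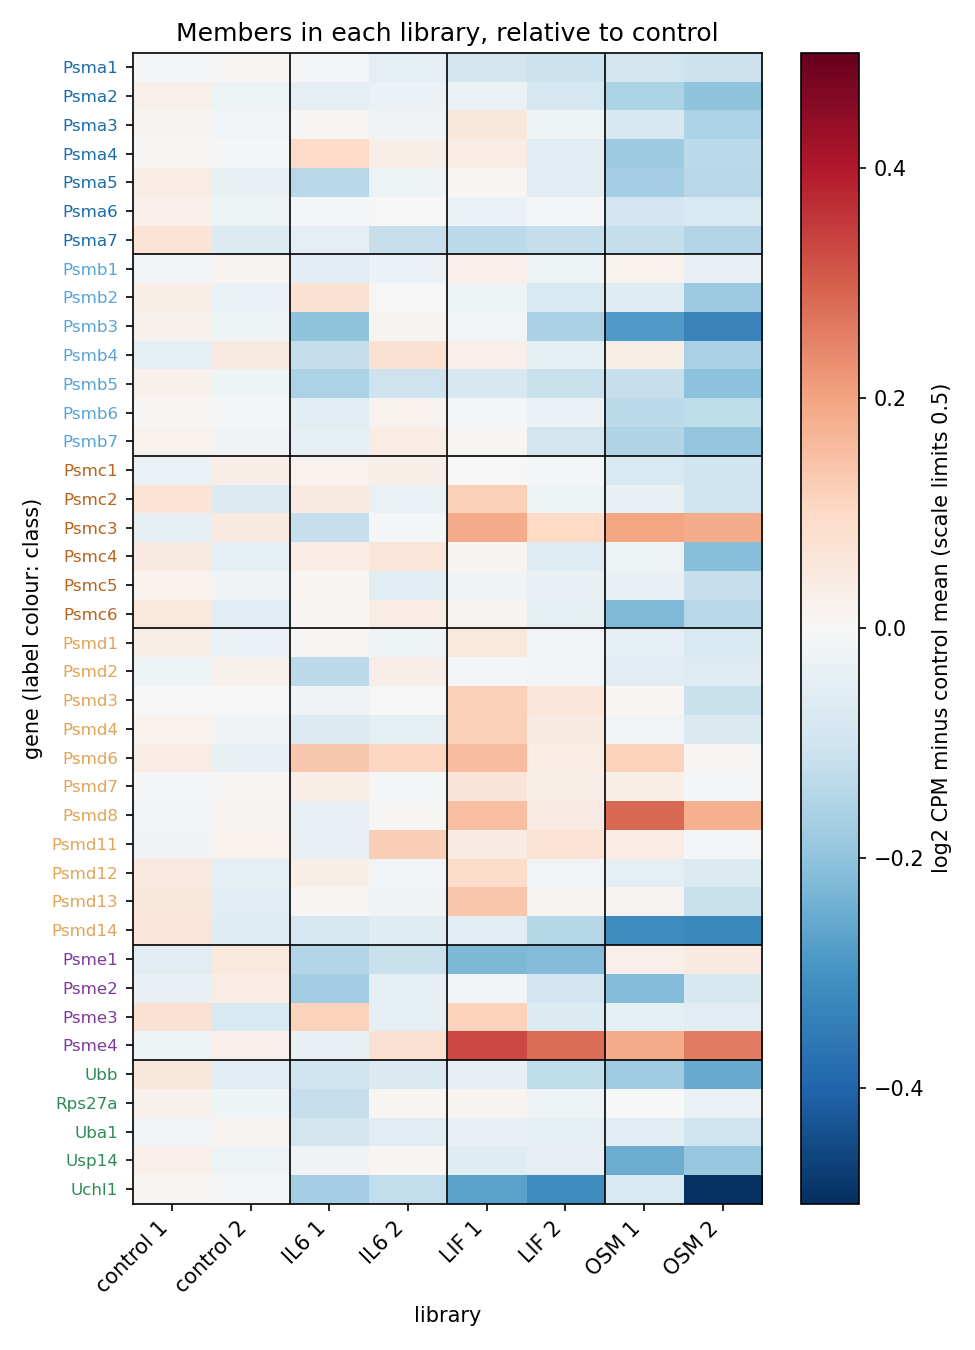
Level of each gene (rows, grouped by class, label colour marking the class) in each of the 8 libraries (columns), as log2 CPM minus the control mean on a scale from -0.5 to 0.5. The OSM columns are blue across the 14 core genes except Psmb1 and Psmb4, which differ between the libraries, and red for Psmc3, Psmd8 and Psme4.

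LIF against control, the same question for the second cytokine, changed 1 member, Psme4, upward: 2.5% of members, where 7.66% of all tested genes were called, and 0 members without LIF 1 or without LIF 2. Libraries did not overlap for 9 members that were lower with LIF (22.5%, background 26.8%) and 8 that were higher (20%, background 25.2%). Fitted changes were below 0 for 26 members (65%, background 51.8%), with a median of -0.013, against -0.0079 for all tested genes; without single libraries this median ran from -0.039 to 0.0101. By complex, fitted changes were below 0 for 13 of 14 core genes (range -0.13 to 0.018) and above 0 for 11 of 17 regulator genes (range -0.10 to 0.14). None of these 31 was called with LIF, and the difference between the complexes was not tested. The signs rested on single libraries: members below 0 were 17 without LIF 2 and 31 without LIF 1, core genes below 0 were 8 and 14, and regulator genes above 0 were 14 and 8.

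IL6 against control changed no member by edgeR's test, nor any of the 15603 genes (0%). At an unadjusted p under 0.05 the members called were also 0, where 5.1% of all genes passed, and DESeq2 called 0 members. The lowest adjusted p of a member was 0.943. Libraries did not overlap for 11 members that were lower (27.5%, background 14.1%) and 2 that were higher (5%, background 14%). Fitted changes were below 0 for 28 members (70%, background 49.7%). All 40 intervals of the log2 change lay within ±0.5, and the fitted changes ran from -0.15 for Uchl1 to 0.12 for Psmd6.

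In the main fit, the direct comparisons of cytokines gave fewer calls for OSM against LIF than for OSM against IL6. OSM against LIF had 0 members called by edgeR, where 8.04% of all tested genes were. At an unadjusted p under 0.05, 10 members passed (25%, background 20.7%), and DESeq2 called 0 (background 7.42%). A fit of these 2 groups alone called 7 (17.5%, background 19.4%), more than the same kind of fit called for OSM against IL6. Leaving out single IL6 or control libraries also changed the count. Fitted values were below 0 for 36 of 40 members (50.1% of all tested genes). That number ran from 29 (without OSM 2) to 37 (without OSM 1 or LIF 2). OSM libraries lay below LIF libraries for 26 members (65%, background 28.6%) and above for 3 (7.5%, background 28.1%). The median log2 change was -0.081, against -0.00059 for all tested genes. OSM against IL6 had 7 members called (17.5%, background 15.5%): Psmc3, Psmd8 and Psme4 higher (7.5%, background 8.02%), and Psma4, Psmc6, Psmd14 and Usp14 lower (10%, background 7.52%). That count fell without any 1 OSM, LIF or IL6 library, and there the members' share lay below that of all tested genes. With the 2 groups alone it was 3 (7.5%, background 13.6%). LIF against IL6 had 1, Psme4 (2.5%, background 2.78%), and 0 without IL6 1 or any 1 LIF or OSM library. The comparisons against control share the control libraries, and those between cytokines share the cytokine libraries, so their results are not independent.

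The core and the regulator were also compared within each library, as the ratio of the summed CPM of the 14 core genes to that of the 17 regulator genes. This measure was added after the values had been seen, and it carries no test. The ratio was 0.687 and 0.683 in control, 0.675 and 0.677 with IL6, 0.645 and 0.649 with LIF, and 0.629 and 0.63 with OSM. The libraries of the 4 groups did not overlap, and the OSM ratio was 91.9%, the LIF ratio 94.4% and the IL6 ratio 98.6% of control. The core sum was 1721 ± 22.4 CPM in control and 1572 ± 33.7 with OSM, and the regulator sum 2511 ± 21.7 and 2495 ± 56.6. With LIF they were 1674 ± 45.6 and 2586 ± 81 CPM.

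The order of the groups was kept when each of the 31 subunits was left out in turn, with the OSM ratio between 90.9% and 93.9% of control. It depended on Psmc3 and Psmd8 together: without both, the ratio was 0.853 and 0.859 in control, 0.836 and 0.844 with IL6, 0.82 and 0.819 with LIF, and 0.822 and 0.82 with OSM. Then all cytokine libraries still lay below control, and the LIF and OSM libraries overlapped. Measured by medians, the core minus regulator log2 difference relative to control was -0.093 and -0.076 with OSM, -0.079 and -0.058 with LIF, and -0.058 and -0.0065 with IL6. Core genes have shorter exons in total (median 2.34 kb) than regulator genes (median 2.82 kb), and the part of length in the ratio was not tested.

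**Figure D5:**
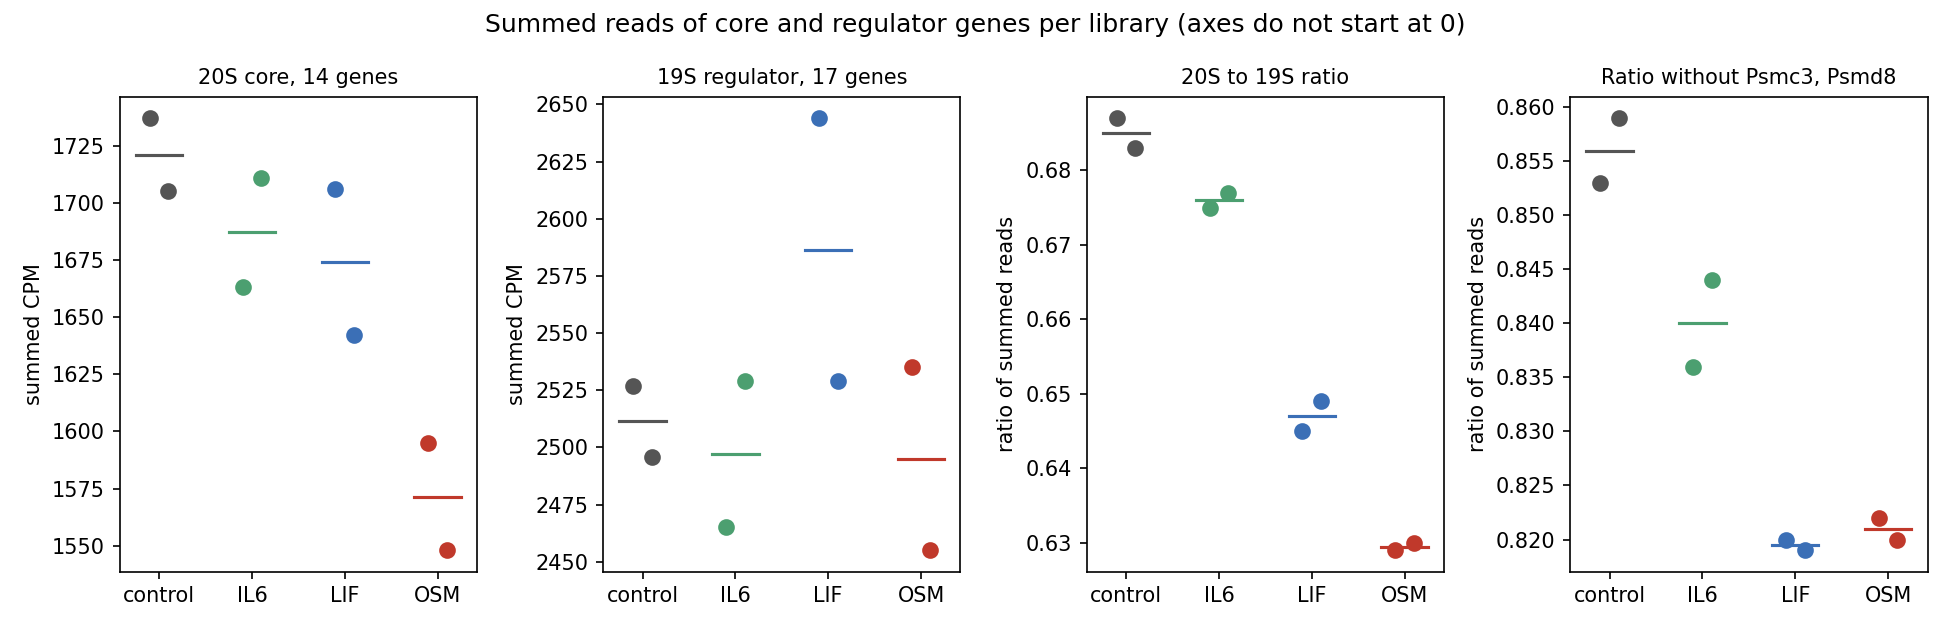
Summed CPM of the 14 core genes and of the 17 regulator genes, their ratio, and the ratio without Psmc3 and Psmd8, for the 2 libraries of each group (points) with the mean (line); axes do not start at 0. The ratio steps down from control (0.687 and 0.683) to OSM (0.629 and 0.63), and without the 2 genes LIF and OSM coincide.

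Beyond the members, 45 further genes of the pathway were followed, of which 41 were tested. With OSM 7 changed (17.1%, against 21.4% of all tested genes), 2 higher and 5 lower. With LIF 0 did, against 7.66% of all tested genes, and with IL6 0 did, against 0%. Among the 11 tested factors that bind the proteasome, Ecpas, a scaffold that tethers or parts core and regulator, rose from 155.3 and 144.2 CPM in control to 180.1 and 172.6 CPM with OSM (log2 change 0.24, adjusted p = 0.0133). Uchl5, the other deubiquitinase that docks on the regulator, fell from 25.73 and 25.79 to 20.42 and 21.27 CPM (log2 change -0.31, adjusted p = 0.0328). In both genes the OSM and control libraries did not overlap. The call of Ecpas was lost without control 2 or OSM 1 (adjusted p up to 0.126), and that of Uchl5 without any 1 control or OSM library or LIF 1 and with DESeq2 (up to 0.212).

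Among 11 genes for ubiquitin, E1 enzymes and ubiquitin recycling, 4 were called with OSM (36.4%, against 21.4% of all tested genes), 3 of them lower. Uchl3, a ubiquitin hydrolase, had the largest change, from 26.15 and 25.86 CPM in control to 18.71 and 19.6 CPM with OSM (log2 change -0.44, SE 0.085, adjusted p = 0.00231). Otub2, another deubiquitinase, fell from 70.1 and 63.7 to 51 and 54.93 CPM (log2 change -0.34, adjusted p = 0.00396). It was the 1 gene of these 41 that also differed between OSM and LIF (log2 change -0.29, adjusted p = 0.0199), where 8.04% of all tested genes did. Uba2, a subunit of the E1 enzyme for SUMO, fell (log2 change -0.25, adjusted p = 0.0126), and Uba6, an alternative E1 for ubiquitin, rose (log2 change 0.19, adjusted p = 0.0478). Uchl3 was called under all 13 alternatives and Otub2 under all but that without OSM 1 (adjusted p = 0.0776, the highest over its alternatives). Uba2 lost its call without control 1, OSM 1 or OSM 2, and Uba6 without any 1 control, LIF or OSM library, with DESeq2, with no filter and with 2 groups alone. The call of Otub2 against LIF was lost without any 1 LIF or OSM library (up to 0.265).

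All 8 tested assembly chaperones had changes below 0 with OSM (50.8% of all tested genes), with a median of -0.15, and 1 passed (21.4% of all tested genes): Psmg2, which helps to build the alpha ring, fell from 38.67 and 38.95 to 31.75 and 32.72 CPM (log2 change -0.27, adjusted p = 0.027), a call lost without any 1 control, LIF or OSM library and with DESeq2 (up to 0.189). None of the 8 genes for regulators and the p97 segregase was called. Nfe2l1, the transcription factor that raises proteasome genes when the proteasome is inhibited, had 789.1 and 772.6 CPM in control and 672.7 and 685.9 with OSM (log2 change -0.20, adjusted p = 0.0544), and it was called under 6 of 13 alternatives. The immunoproteasome gene Psmb8 ranged from 0.7184 to 1.11 CPM over the 8 libraries, Psmb9 from 0.06842 to 0.469 and Psmb10 from 5.755 to 8.655, and none was called. The tissue-specific subunit genes Psmb11 and Psma8 had 0 counts in every library, which allows up to 3 counts per library.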

How the data were processed

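RNA from 8 libraries (4 groups of 2) was prepared with a stranded poly(A) kit, per the labels' protocols. The authors deposited whole-number read counts per Ensembl gene, 1 table per library. The submitters' processing notes name FastQC 0.11.9, MultiQC 1.12, Trim Galore 0.6.5, STAR 2.7.3a, HTSeq 0.11.1, DESeq2 1.34.0 and build GRCm39, without roles; the annotation release and the strand setting are not given in the sources used here. The 5 summary lines per table (11.7% to 12.7% of reads) were left out. Counts were analysed in R 4.3.3 with edgeR 4.0.16 (limma 3.58.1): filterByExpr with a minimum count of 10, TMM scaling, 1 fit over the 4 groups with 4 residual degrees of freedom, quasi-likelihood tests and Benjamini-Hochberg adjustment over all 15603 genes. The test was first run on simulated counts drawn independently for each library, so that run could not show effects shared between libraries. It gives no support to the results here. CPM are scaled by TMM. Exon lengths, exon overlap and shared 50-base words come from GENCODE M21 (GRCm38), which is not the build counted, so no gene coordinates are given. Alternatives were RLE scaling, DESeq2 1.42.0, no filter, a replicate block, 2 groups only and leaving out each library. Replicates differed beyond sampling noise in every group (chi-square per gene 2.97 to 12). Members and gene lists were chosen with earlier results of these data known. Values per library are given for members called in any comparison, the catalytic beta genes, activators, ubiquitin genes, and the highest and lowest member per cytokine; other pathway genes are named where called with a cytokine, and Slc39a13, Thoc1, Nfe2l1 and the immunoproteasome genes were named after their values were seen. Of the 45 pathway genes, 44 had an identifier under the listed symbol.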

Additional observations from a re-analysis of the deposited data

How the results depend on the processing

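With 2 libraries a group, single libraries decided many calls. Leaving out each library in turn changed the members called at least once in every comparison except IL6 against control. For OSM against control the count fell without the first control library or any 1 OSM or LIF library. For OSM against IL6 it fell without any 1 OSM, LIF or IL6 library. In these fits the members' share lay below that of all tested genes. For OSM against control the count rose without any 1 IL6 library. The call for LIF against control was lost without any 1 LIF library. That for LIF against IL6 was lost without the first IL6 library or any 1 LIF or OSM library. OSM against LIF gained calls without any 1 control or IL6 library. A lone library is then assumed to vary like the other groups. Median log2 changes ranged from -0.104 to -0.0463 for OSM against control, -0.039 to 0.0101 for LIF, -0.0393 to -0.00992 for IL6, -0.11 to -0.0483 for OSM against LIF, -0.0854 to -0.0331 for OSM against IL6 and -0.0187 to 0.0425 for LIF against IL6. The core to regulator ratio ranged from 91.6% to 92.2% (OSM), 94.2% to 94.7% (LIF) and 98.3% to 98.9% (IL6) of control, and without Psmc3 and Psmd8 it was 95.9%, 95.7% and 98.1%; these settings were chosen after seeing the data. A fit of only 2 groups called 3 members for OSM against IL6 (7.5%, background 13.6%) and 0 for LIF against IL6 (background 2.29%). It called 7 for OSM against LIF (17.5%, background 19.4%). Using no filter on low counts gave 1 (Psmb3) for OSM against LIF (2.5%, background 6.29%). For the 30 genes named with values, 2188 alternative values over the 6 comparisons stayed on their side of the threshold, 110 lost a call and 42 gained one, and no called gene reversed. Replicate numbers were shared between groups, but only 2 per group, and the deviations of same-numbered libraries correlated at 0.00708 to 0.181. These correlations cannot decide whether the libraries were paired, and the main fit did not treat them as pairs. With the replicate number as a block, 10 members were called for OSM against control (25%, background 25.4%). The block gave 8 when OSM was set against IL6 (20%, background 19.2%), and 1 (Psmd14) when it was set against LIF (2.5%, background 11.3%). Over all genes, the LIF against IL6 comparison called 434 genes (826 with the block, 985 with no filter, 82 to 739 without single libraries), OSM against LIF 1255 (2928 with 2 groups only; 437 to 1764), IL6 against control 0 (14 with DESeq2, 9 with the block, 97 with no filter; 0 to 221), LIF against control 1195 (316 to 1688), OSM against IL6 2426 (1105 to 2713) and OSM against control 3335 (1622 to 4067).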
